A study of Gallus gallus with 33 samples.

Results

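Gene expression was examined in chick utricles, vestibular organs that sense gravity and linear motion, whose cultured sensory epithelia had been wounded with a laser 3 hr earlier. This time point was represented by 14 of the 33 arrays in the series and by 3 of its 9 biological samples, chosen by their labelled recovery time alone. The remaining arrays (5 at 30 min, 6 at 1 hr and 8 at 2 hr, from 2 samples each) served as the rest of the series. Epithelia came from White Leghorn chicks in the first weeks after hatching and were grown on fibronectin, and each sample pooled 4 wounded cultures, with 4 unwounded cultures as its time-matched control. The wounds were lines cut with a pulsed laser, and the control cultures stood beside the microscope meanwhile. RNA was amplified before labelling, and lesioned and control RNA were hybridized together in opposite dyes. Every value here is therefore a ratio of laser over control on the log2 scale, for which 0 means equal signal and 1 means 2-fold higher after the laser.

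The mammalian vestibular organs regenerate hair cells only to a very limited extent. The avian utricle replaces lost hair cells from its supporting cells, which divide or change directly into hair cells. A wound in an epithelium is first closed by spreading and migrating neighbours, and its margin classically switches on immediate early transcription factors of the AP-1 family (FOS and JUN proteins), which bind DNA as pairs and drive the genes of migration and growth. The arrays measured genes for such regulators, using oligonucleotides that were designed on human transcription factor genes, so a probe reports the chick transcript closest to a human sequence. Bulk RNA was measured, so fewer cells of a type and less RNA per cell cannot be told apart.

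The 3 samples differed sharply in how wide their ratios were and in whether opposite dye orientations gave the same answer. Of 1516 analysed identifiers, 371 (24.5%) passed a filter on dim signals, which asked for a brighter channel over 1000 on 50% or more of all 33 arrays. Over these 371 probes the standard deviation (SD) of the log2 ratio was 1.03 in replicate 1, 0.229 in replicate 2 and 0.162 in replicate 3, against 0.232 to 0.401 in the 6 samples of the other times. Replicate 1 alone exceeded all of those. The mean SD was 0.475 at 3 hr and 0.304 at the other times, a difference of 0.171 that did not pass a two-sided exact permutation test over the 84 splits of 3 against 6 samples (p = 0.476, smallest possible p 0.0119). The width of replicate 1 was known before the test. Every split that keeps it among the 3 gives a difference at least as large. With these SDs a low p was therefore out of reach, and the test decides nothing. Without replicate 1 the difference was -0.108 (exact permutation p = 0.0714).

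The dye orientations were set against each other within each sample. In replicate 1 (3 arrays per orientation) the ratio with laser RNA in Cy3 followed the ratio with laser RNA in Cy5, with r = 0.80 across the 371 probes. In replicate 2 (1 array per orientation) r was -0.78, and in replicate 3 (3 arrays per orientation) it was -0.80. A correlation below 0 means that the probes that were high with the laser RNA in one dye were low with it in the other. Averaging both orientations cancels such a dye-following part, which had an SD of 0.374 in replicate 1, 0.628 in replicate 2 and 0.472 in replicate 3. In replicates 2 and 3 it was thus larger than the averaged ratio itself. Were the recorded dye of 1 orientation wrong in either sample, these parts would trade places and the average would cancel the RNA difference instead; the ratios alone cannot tell these cases apart. These correlations are across probes of 1 hybridized RNA pair, which are not independent replicates.

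**Figure D1:**
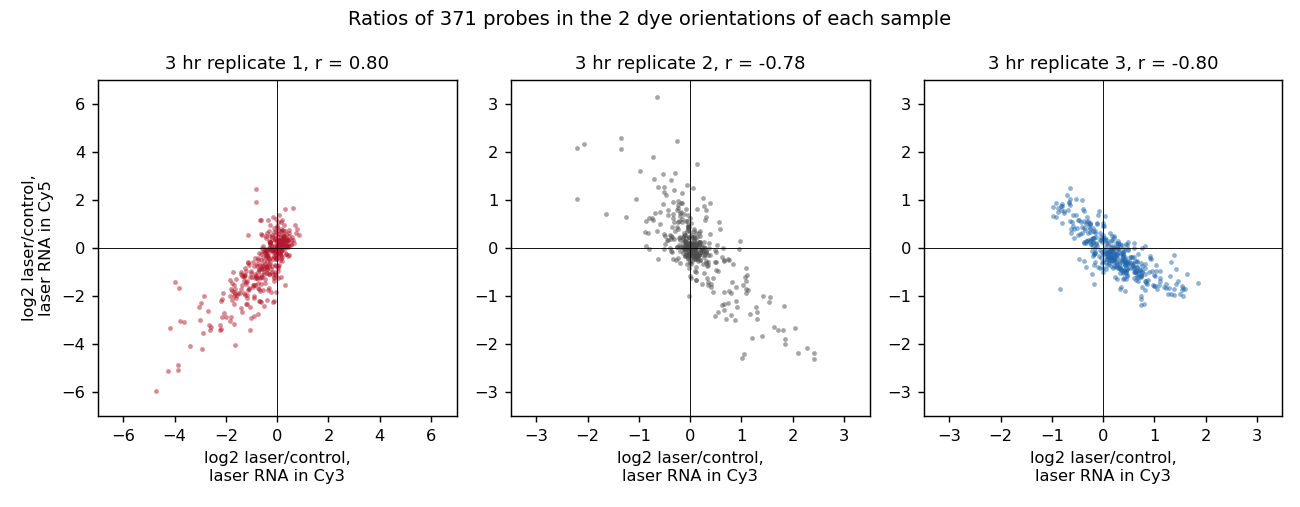
Each panel plots, for 1 biological sample at 3 hr, the log2 laser over control ratio of 371 probes with laser RNA in Cy3 (horizontal) against the ratio with laser RNA in Cy5 (vertical). On scales wider in the first panel than in the others, the cloud rises in replicate 1 (r = 0.80) and falls in replicate 2 (r = -0.78) and replicate 3 (r = -0.80).

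On 1 array of replicate 2, that with laser RNA in Cy3, file names and image names disagreed about which channel was which, and the image names in the headers were followed. With the file names instead, the orientations of replicate 2 correlated at 0.783 and the SD of its ratio was 0.628. Its lowest probes were then FOXP1 (-2.36), JUNB (-2.30), HOXA13 (-2.18) and MSC (-2.14), and its highest were BAPX1 (2.14) and ADORA2A (2.11). Even so, its correlation with replicate 1 was 0.0883 and with replicate 3 -0.0165. The direction in replicate 2 is not settled by the sources used here.

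No probe passed an adjusted threshold at 3 hr. In limma's moderated test of the 3-sample mean against 0, 0 of 371 probes (0%) had a Benjamini-Hochberg adjusted p under 0.05, and the smallest adjusted p was 0.656. Without adjustment, 7 probes (1.89%) had p under 0.05, all lower after the laser. The median standard error (SE) of the 3 hr mean was 0.18. Each SE given here comes from limma's moderated variance, shared over all 9 samples, and not from the 3 samples alone. The contrast of 3 hr minus the mean of the other times also called 0 of 371 (0%), with a smallest adjusted p of 0.856, and 6 probes (1.62%), all lower, had p under 0.05 before adjustment. A fit that counted all 33 arrays of the series as units, with the imaging day as a random block, called 16 probes at 3 hr. The values below are accordingly given per sample, and the technical arrays of 1 sample are not replicates of the wound.

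Replicate 1 had many strongly negative ratios and few positive ones. Of 371 probes, 67.1% lay below 0, with a median of -0.34, against 41.5% in replicate 2 (median 0.03; 51.8% by the file names) and 36.4% in replicate 3 (median 0.06). There were 110 probes lower by more than 2-fold in replicate 1 and 1 higher, FARSL (1.14), which encodes a subunit of phenylalanyl-tRNA synthetase. No probe was lower by more than 2-fold in either of the other samples, but by the file names replicate 2 had 29 such probes and 13 higher by more than 2-fold. On every array of replicate 1, 16 probes (4.31%) were higher and 92 (24.8%) were lower. Of these, 15 and 83 were on all 6 arrays and the rest on the 2 later-print arrays alone.

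These signs were relative to a strong trend in the raw intensities. Before normalization the laser channel was the brighter on every array of replicate 1 for 205 of 371 probes and the control channel for 6. The loess curve, which sets the typical ratio at each brightness to 0, removed a median of 1.12 to 4.18 log2 units of laser over control on the 6 arrays at these probes. It removed 2.52 to 4.82 at the brightest of them (the top 10%) and -0.20 to 2.52 at the dimmest (the bottom 10%). When each array was only centred on its median, 114 probes were higher on every array and 55 were lower, so that 67.5% of such probes were higher, against 14.8% after loess. All 16 of the higher probes and 41 of the 92 lower probes kept their place. The median over the 371 probes moved to 0.29 with centring alone, against -0.34 after loess. The cause of the trend was not tested.

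The probe with the highest ratio among those above 0 on every array of replicate 1 was ONECUT2, a homeodomain factor of the hepatocyte nuclear factor family. Its 6 values were 0.25, 0.54 and 1.30 with laser RNA in Cy3 and 2.03, 0.25 and 0.55 with laser RNA in Cy5, with a sample mean of 0.82. In replicates 2 and 3 it averaged -0.09 and 0.35. Replicate 3 was thus higher as well, while replicate 2 was not, and neither channel of replicate 2 rose above its local background at this probe. In replicate 1 the laser channel was above background on 5 of 6 arrays and the control channel on 1.

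FOSB, an AP-1 protein made within minutes to hours of a stimulus, came next. Its ratios in replicate 1 were 1.26, 0.14 and 0.90 with laser RNA in Cy3 and 0.46, 0.64 and 1.26 with laser RNA in Cy5, with a mean of 0.78. In raw signal the laser channel read 27883, 62509 and 52449 on the Cy3 arrays, against 390, 3568 and 2973 in the control channel. On the Cy5 arrays it read 13567, 3042 and 9423, against 1472, 794 and 1014 in the control channel. The laser channel was the brighter on all 6 arrays, by a factor of 3.83 to 71.5 (median 13.4) before the trend was removed. FOSB averaged 0.31 in replicate 3 and 0.05 in replicate 2, where neither channel was above background. Over the 3 samples its mean was 0.38 ± 0.17 (SE), with an unadjusted p of 0.0548 and an adjusted p of 0.656 in limma.

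Among the other probes of the 8 highest were TEAD1, ZNF298, GTF3C4, TAF2C2 and CBX1, with replicate 1 means of 0.68, 0.60, 0.51, 0.50 and 0.46. TEAD1 is the DNA-binding partner of the growth regulator YAP. GTF3C4 belongs to the RNA polymerase III initiation machinery, TAF2C2 carries the name of a TFIID subunit, and CBX1 is a heterochromatin protein. In replicate 2 these 5 probes ran between -0.09 and 0.04, and in replicate 3 between -0.07 and 0.12. Neither channel of replicate 2 was above background at GTF3C4, TAF2C2 and CBX1, nor was its control channel at TEAD1 and ZNF298. The control channel of replicate 1 was above background on 1 of 6 arrays at TEAD1, on 2 at GTF3C4 and TAF2C2, and on 4 at CBX1. At ZNF298 the control channel of replicate 1 was not above background on any array. With that channel set at the lowest signal above background, ZNF298 was 1.04-fold higher after the laser.

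The lowest probe present on all 6 arrays of replicate 1 was HRIHFB2122, an older name of TRIOBP, a protein that binds and bundles actin. It gave -3.34, -4.61 and -4.79 with laser RNA in Cy3 and -4.17, -6.12 and -5.09 with laser RNA in Cy5, a mean of -4.69. Its raw signals on the Cy3 arrays were 623, 8118 and 2739 in the laser channel, against 423, 12486 and 13860 in the control channel. On the Cy5 arrays they were 6743, 2510 and 1456 in the laser channel, against 38934, 13587 and 6536 in the control channel. The control channel was thus the brighter in raw signal on 5 of 6 arrays, at a probe bright in both. In replicates 2 and 3 its ratio was 0.22 and 0.20, and there the Cy3 channel was the brighter in both orientations.

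AF5Q31 (AFF4, the scaffold of the super elongation complex) averaged -3.74 in replicate 1. Its arrays gave -3.04, -1.89 and -5.27 with laser RNA in Cy3 and -1.23, -6.91 and -4.12 with laser RNA in Cy5, all below 0. KIAA0352 averaged -3.57, and KIAA0130 (MED24, a Mediator subunit) averaged -3.42. KIAA0173 (TTLL4, a tubulin glutamylase) averaged -3.35, SRY averaged -3.02 and ZNF10, a KRAB zinc finger repressor, averaged -3.01. The laser channel of replicate 1 was above background on 1 of 6 arrays at KIAA0352 and SRY. It was above background on 3 at KIAA0173 and ZNF10, on 4 at KIAA0130 and on all 6 at AF5Q31. SRY is the testis-determining gene of mammals, which birds lack, so this identifier names the human design and not a chick gene. In replicate 2 the 7 named probes of the 8 lowest ran between -0.44 and 0.93, and in replicate 3 between -0.22 and 0.22. BRD1 lay lower still at -5.35, but only the 2 later-print arrays of replicate 1 carried it (-4.74 and -5.96).

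Per probe, the other samples gave the following. TEAD1 was 0.04 in replicate 2 and -0.06 in replicate 3, ZNF298 was -0.07 and 0.12, GTF3C4 was -0.09 and 0.10, TAF2C2 was 0.01 and -0.06, and CBX1 was -0.04 and -0.07. Of the lowest probes, AF5Q31 was 0.56 in replicate 2 and -0.01 in replicate 3, KIAA0352 was 0.93 and -0.03, KIAA0130 was -0.01 and 0.05, and KIAA0173 was 0.65 and -0.22. SRY was -0.44 and 0.22, and ZNF10 was 0.33 and 0.10.

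**Figure D2:**
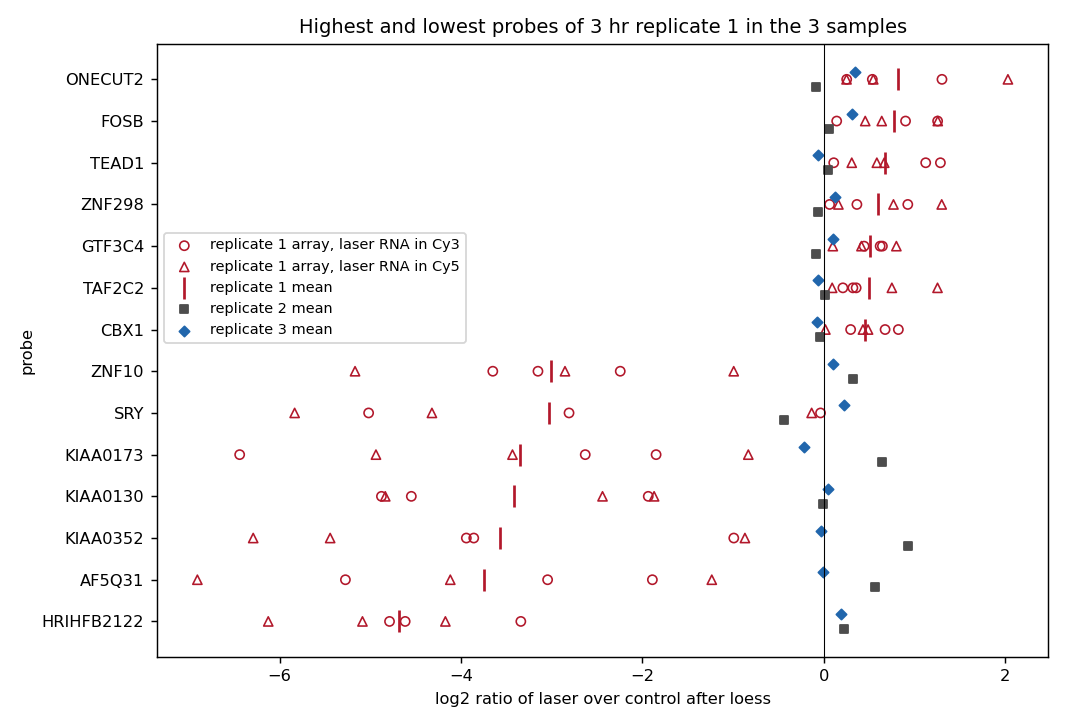
The horizontal axis is the log2 ratio of laser over control and each row is 1 probe. Open markers are the 6 arrays of replicate 1 by dye orientation, the bar is their mean, and filled markers are the means of replicates 2 and 3, which lie between -0.44 and 0.93 for the 14 probes shown while the arrays of replicate 1 reach -6.91.

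**Figure D3:**
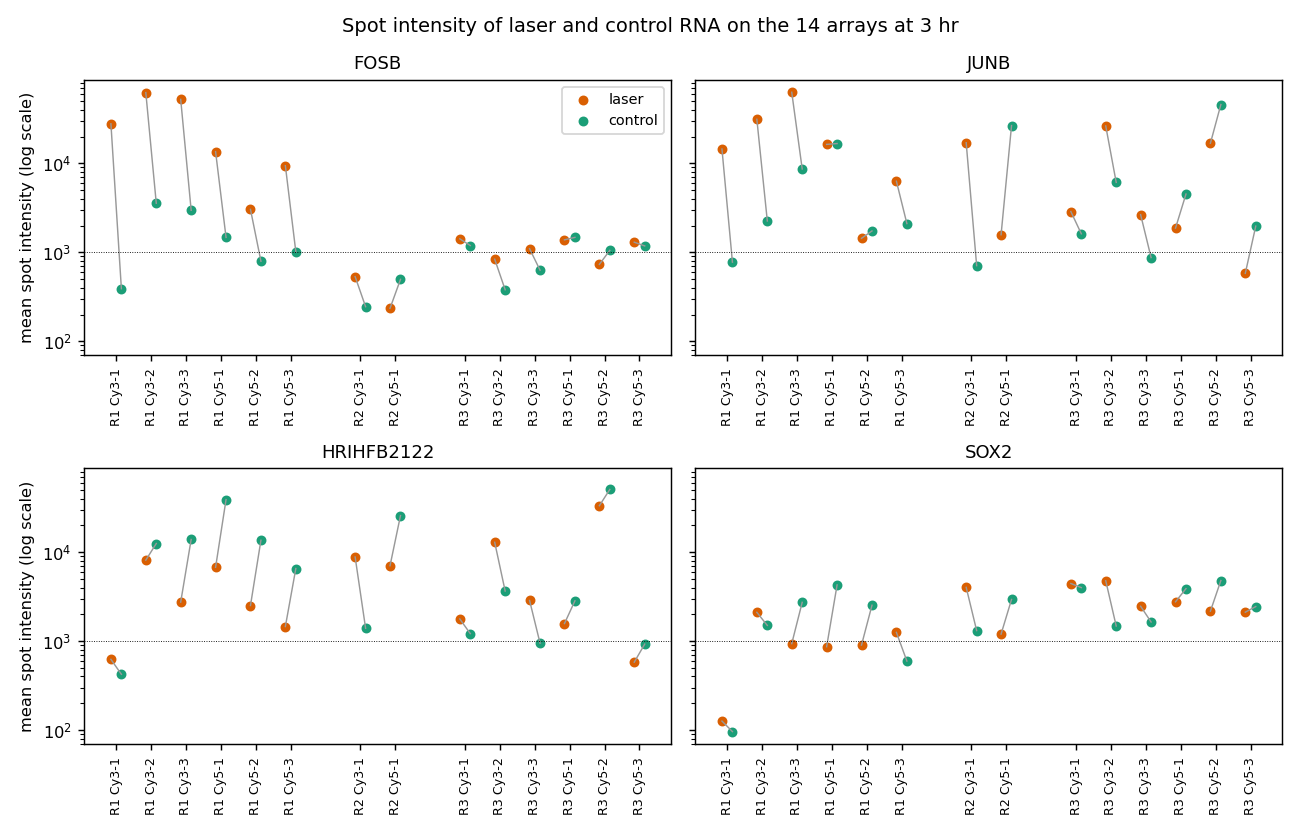
Mean spot intensity (log axis) of laser RNA (left point of each pair) and control RNA (right point) on the 14 arrays at 3 hr, for probes named in the panel titles. R1 to R3 are the replicates, Cy3 or Cy5 is the dye of the laser RNA with the array number after it, the dotted line is the filter level of 1000, and at FOSB the laser point is the higher on all 6 arrays of replicate 1.

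The 7 named probes of the 8 highest and the 7 of the 8 lowest in replicate 1 kept their sign when the arrays were centred on the median, with 1.26 to 2.61 for the highest and -2.94 to -1.77 for the lowest. They were chosen by their ratios in replicate 1, so those ratios describe them and no test applies. The other 2 samples did not enter that choice. There the 92 lower probes had medians of 0.08 in replicate 2 and 0.05 in replicate 3, with 35.9% and 40.2% below 0, against 41.5% and 36.4% of all 371. The 16 higher probes had medians of -0.02 and 0.07. Across the 371 probes replicate 1 correlated with replicate 2 at -0.153 and with replicate 3 at 0.0488, and replicates 2 and 3 correlated at 0.0297.

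Within replicate 1 the arrays fell into 3 dye-swap pairs, the first imaged on adjacent days and each of the others on a single day. The first pair and the second were made on an earlier print of the array and the third on the later print. The SD of the ratio was 0.719 in the first, 1.57 in the second and 1.21 in the third, and within a pair the orientations correlated at 0.72, 0.784 and 0.63. Between pairs the correlation was 0.672 for the second and the third, 0.401 for the first and the second, and 0.359 for the first and the third. Probes lower by more than 4-fold numbered 11, 87 and 38. HRIHFB2122 was low in all 3 pairs (-4.21, -4.39 and -5.46), whereas SRY gave -0.08, -5.43 and -3.56. FOXO3A (FOXO3, a stress-responsive forkhead factor) gave -0.14, -4.60 and -4.10. Its laser channel was above background on 1 of 6 arrays of replicate 1. FHL1, a LIM-domain protein, gave -0.19, -3.71 and -4.23. The depth of these probes thus rested on the second and the third pair. For the third pair, its imaging session and the print cannot be told apart.

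Among AP-1 and immediate early genes, 5 of 24 on the array passed the filter, and 1 was higher and 1 lower on every array of replicate 1. Each was 20% of the 5, against 4.31% higher and 24.8% lower among all 371 probes. FOSB was the higher one. JUNB, its dimerization partner, was lower on every array (-0.61, -0.60 and -0.49 with laser RNA in Cy3, -1.69, -2.52 and -1.06 with laser RNA in Cy5), with a mean of -1.16. JUNB turned to 0.61 with median centring alone and was 0.13 and -0.18 in replicates 2 and 3. JUN averaged -0.72, -0.40 and 0.09 in replicates 1 to 3. JUN was not above background in the laser channel of replicate 1 on any array. With that channel set at the lowest signal above background, JUN was 1.33-fold lower there. Before normalization, however, its laser channel was the brighter on 4 of 6 arrays. Its control channel there was above background on 2 of 6 arrays. By the file names replicate 2 would be -2.30 for JUNB and 0.45 for JUN. COPEB (KLF6, a zinc finger factor of early injury responses) was -1.61, 0.06 and 0.20, and 2.42-fold lower in replicate 1 by the same kind of estimate. Its control channel there was above background on 4 of 6 arrays. MYC, a driver of growth and cycling, was -0.25, 0.03 and -0.11, but 1.46 in replicate 1 and above 0 on all 6 arrays with median centring alone. The members of this list therefore ran in both directions.

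Chromatin regulators had 18 of 59 members past the filter, with 2 higher and 7 lower on every array of replicate 1 (11.1% and 38.9%, against 4.31% and 24.8% of all 371 probes) and a median of -0.58, against -0.34 over all probes. One of the lower ones, BRD1, was on 2 of the 6 arrays alone. Among the lower ones, besides BRD1, were PRDM2 (-2.79), PRDM13 (-2.44), PRDM16 (-2.03), EZH1 (-0.57) and BAZ2B (-0.49). PRDM proteins carry a methyltransferase-like domain with zinc fingers, and EZH1 is a Polycomb methyltransferase. CBX1 and PRDM15 (0.34) were the higher ones. In replicates 2 and 3 the list's medians were -0.04 and 0.06, close to the 0.03 and 0.06 of all probes.

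Forkhead and SOX genes had 11 of 34 members past the filter and a median of -0.91 in replicate 1, with 1 higher (9.09%) and 5 lower (45.5%) on every array, against 4.31% and 24.8% of all 371 probes and a median of -0.34. The lower ones were SRY, FOXO3A (-2.94), SOX2 (-2.32), HNF3A (FOXA1, -1.75) and FOXL2 (-0.69). The medians were -0.02 in replicate 2 and 0.09 in replicate 3. SOX2, the factor that specifies the prosensory domain and is kept in supporting cells, gave -0.39, -3.12 and -1.87 with laser RNA in Cy3 and -4.96, -3.29 and -0.32 with laser RNA in Cy5. Both shallow values belonged to the first pair. The laser channel of replicate 1 was above background at SOX2 on 2 of 6 arrays and the control channel on 4. Before normalization the laser channel there was the brighter on 3 of 6 arrays. SOX2 averaged -0.02 in replicate 2 and 0.01 in replicate 3. By the file names it would be 1.04 in replicate 2.

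The HOX genes, which set position along the body axis, had 12 of 38 members past the filter, with 0 higher and 5 lower (41.7%) on every array of replicate 1, against 4.31% and 24.8% of all 371 probes, and a median of -0.79, against -0.34. The lower ones were HOXB9 (-1.77), HOXA3 (-1.44), HOXA5 (-1.31), HOXD8 (-1.21) and HOXA6 (-1.20). Homeobox genes outside the clusters had 22 of 72 past the filter, with 2 higher, ISL1 (0.42) among them, and 2 lower, GBX2 (-2.20) among them. Each count was 9.09% of the 22. General transcription factors had 9 of 39, with GTF3C4 and TAF2C2 higher and TAF2H (-1.91), GTF2A1 (-1.18) and GTF2A2 (-0.33) lower. These were 22.2% and 33.3% of the 9.

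In the Notch pathway, by which hair cells hold their neighbours in the supporting state, 4 of 8 members passed. HEY2, a repressor downstream of Notch, was higher on every array of replicate 1 (mean 0.38), and HES7 (-1.78) and FHL1 (-2.71) were lower. These were 25% and 50% of the members that passed, against 4.31% and 24.8% of all 371 probes. HEY1 was higher on 3 of 6 arrays, with a mean of 0.17. HEY2 was -0.03 in replicate 2 and 0.07 in replicate 3. The PAX and EYA network of otic placode factors had 6 of 19 past the filter, with a median of 0.13 in replicate 1. On every array 1 member was higher (16.7%) and 0 were lower (0%).

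In the TGF-beta and BMP pathway, 8 of 21 members passed, and ID1 (-1.27) and ELF3 (-0.46) were lower on every array of replicate 1. They were 25% of the 8, against 24.8% of all 371 probes. ID1, an inhibitor of basic helix-loop-helix proteins and a BMP target, was deepest in the first pair (-2.49), with -1.04 and -0.27 in the others. Before normalization, however, its laser channel was the brighter on all 6 arrays of replicate 1. With median centring alone ID1 was -0.0085 there, with 4 of 6 arrays above 0. MADH7 (SMAD7, the inhibitory SMAD) was -1.46, -0.58 and 0.04 in replicates 1 to 3. The NF-kappaB, STAT and IRF factors had 5 of 27 past the filter, with NFKB2 at -2.39 and RELB at 0.56 in replicate 1, neither of which kept 1 sign on every array. Of 13 cell cycle regulators past the filter from 39, 0 were higher and 2 were lower on every array (FOXO3A and DEAF1, -1.83). The 2 lower ones were 15.4% of the 13, against 24.8% of all 371 probes.

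For list members given so far by replicate 1 alone, the other samples were as follows. PRDM2 was 0.31 in replicate 2 and -0.06 in replicate 3, PRDM13 was 0.08 and -0.11, and PRDM16 was 0.25 and 0.11. EZH1 was -0.11 and -0.04, BAZ2B was -0.12 and -0.06, and PRDM15 was 0.03 and -0.002. HNF3A gave -0.12 and -0.08, FOXL2 gave 0.05 and 0.13, and HES7 gave -0.01 and -0.03. NFKB2 gave 0.32 and 0.08, RELB gave -0.003 and -0.14, and DEAF1 gave 0.65 and -0.26. FOXO3A was -0.11 in replicate 2 and 0.29 in replicate 3, HOXB9 was 0.15 and 0.01, and FHL1 was 0.21 and 0.04. HOXA3 was 0.27 and -0.07, HOXA5 was 0.59 and 0.20, HOXD8 was 0.01 and 0.16, and HOXA6 was -0.20 and 0.22. GBX2 was 0.13 and -0.12, GTF2A1 was 0.10 and 0.22, and GTF2A2 was -0.07 and 0.14. TAF2H gave -0.27 and 0.02, ID1 gave -0.27 and 0.30, ELF3 gave -0.08 and 0.20, and BRD1 gave -0.20 and -0.02. By the file names replicate 2 would give -0.95 for BRD1, -0.89 for FHL1, 0.60 for ID1, -0.53 for ELF3, 0.40 for FOXO3A, -0.39 for TAF2H and -0.04 for HOXB9. With median centring alone TAF2H turned to 0.019 in replicate 1.

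In the remaining lists the shares were again set beside the 4.31% of all probes that were higher and the 24.8% that were lower on every array of replicate 1. Of the bZIP stress factors 10 of 36 passed the filter, with a median of 0.02, 0 higher and 1 lower on every array. That one was CEBPG, a partner of other C/EBP proteins, with -1.07, -0.64 and -0.14 in replicates 1 to 3, though 0.19 in replicate 1 with median centring alone. Nuclear receptors had 7 of 47 (28.6% of them lower), with NR1I3 (-1.62, 0.32 and -0.37) and NR1H3 (-0.80, -0.14 and -0.26) lower on every array. Zinc finger genes had 20 of 160 (5% higher and 20% lower), with ZNF298 higher and ZNF10, ZNF38 (-1.78), ZNF93 (-1.21) and ZFP91 (-0.71) lower. In replicates 2 and 3 ZNF38 was 0.21 and -0.11, ZNF93 was 0.22 and 0.29, and ZFP91 was 0.28 and 0.28. Kruppel-like and SP factors had 5 of 18, with BCL11A (-1.05, 0.21 and 0.43) lower, and ETS factors had 2 of 23, with ELF3 lower. With median centring BCL11A turned to 0.37 and ELF3 to 0.30 in replicate 1. LDOC1 was the lower one among the NF-kappaB, STAT and IRF factors (-1.45, 0.01 and 0.12). By the file names replicate 2 would give -1.71 for LDOC1, -1.65 for CEBPG, 0.79 for NR1I3 and -0.46 for BCL11A. The WNT pathway had 2 of 11 past the filter and none of 1 sign.

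**Figure D4:**
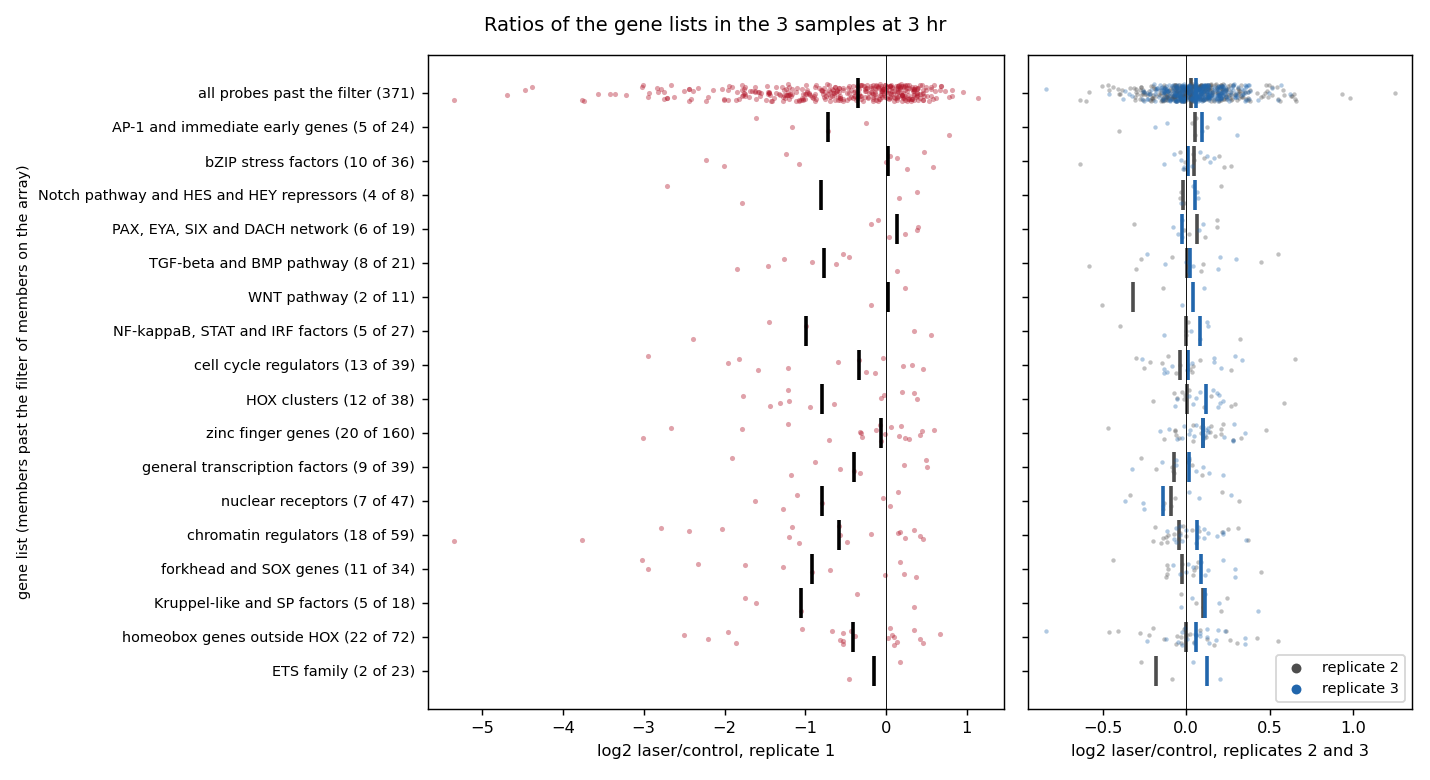
Log2 laser over control ratios of the members of each gene list past the filter (dots), with the list's median (bar), for replicate 1 (left) and replicates 2 and 3 (right). The horizontal scales differ between panels. The list medians of replicate 1 run from -1.05 to 0.13, with -0.34 over all probes.

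The labelled tissue was checked against markers. None of the 5 hair cell markers (ATOH1, POU4F3, GFI1, BARHL1 and MYT1) passed the filter. ATOH1, the factor that starts hair cell differentiation, was above background on 6 of 14 arrays in the laser channel and on 5 in the control channel. MYT1 was above it on 11 and 8 arrays, GFI1 on 6 and 8, and POU4F3 and BARHL1 on 5 and 5 each. Of 9 markers of supporting cells and sensory epithelium 4 passed, SOX2, HEY1 and HEY2 among them. Passing the filter shows signal at a probe and not that a cell type was present. Of the markers of other cell types, 4 of 6 neuronal and glial, 2 of 6 mesenchymal, 3 of 8 blood and immune and 0 of 5 muscle markers passed. Of the muscle markers MYOD1, the myogenic master factor, was nevertheless above background on 12 of 14 arrays in each channel, with -2.62, 0.05 and 0.13 in replicates 1 to 3. The other muscle markers did not follow it and lay between -0.16 and 0.20 in replicate 1. They were above background on 5 to 9 of 14 arrays in the laser channel and on 5 to 8 in the control channel. Median ratios of the markers past the filter in replicate 1 were 0.27 for supporting cells, 0.36 for neurons and glia, -1.28 for mesenchyme and 0.17 for blood and immune cells. The mesenchymal median rested on 2 probes, and the mesenchymal markers that did not pass lay between 0.03 and 0.23 in replicate 1. Of the supporting cell probes past the filter, SOX2 lay at -2.32 and the others above 0. Among the neuronal probes, NEUROG1, which specifies otic neurons, was 0.61, 0.02 and -0.11 in replicates 1 to 3, and ISL1, a LIM-homeodomain factor of sensory neurons, was 0.42, -0.13 and 0.00. POU4F1 was -0.43, 0.24 and 0.23, and EBF was 0.31, -0.08 and -0.01. The mesenchymal factor TCF21 was -1.20, -0.08 and 0.20, and TBX15 was -1.37, 0.55 and 0.20. With median centring alone TCF21 turned to 0.25 in replicate 1, and by the file names it was -1.93 in replicate 2. Of the blood and immune markers, SPI1, the master factor of myeloid cells, was 0.17, -0.27 and 0.04, PAX5 was 0.04, 0.11 and -0.02, and TBX21 was 0.32, 0.00 and 0.02. The part of these markers in the other ratios was not tested.

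Probes that ran in the same direction in all 3 samples were the next group, with 40 higher (10.8%) and 36 lower (9.7%). The shares of all 371 probes above 0 were 32.9%, 58.5% and 63.6% in replicates 1 to 3. Unrelated samples with such shares would give counts of about this size, so the counts alone do not show agreement. Ranked by the smallest of its 3 ratios, PRDM11 led the higher ones, with 0.18, 0.21 and 0.22 in replicates 1 to 3. Next were RBM12, an RNA-binding protein (0.38, 0.14 and 0.19), TNRC9 (TOX3, an HMG-box protein, 0.19, 0.12 and 0.21) and NFIL3, a bZIP repressor (0.14, 0.11 and 0.17). None exceeded a mean of 0.24. By the file names TNRC9 would be -0.20 and NFIL3 -0.01 in replicate 2, and 32 probes would be higher and 39 lower in all 3 samples. The SE of these means ran from 0.10 to 0.17, and PRDM11, RBM12 and NFIL3 were not above background in either channel of replicate 2.

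POU4F2 led the lower ones. This POU-homeodomain factor of the BRN3 family is a relative of POU4F3, the factor on which hair cells depend for survival in mouse. It averaged -0.66, -0.41 and -0.84 in replicates 1 to 3, a mean over the 3 samples of -0.64 ± 0.15 (SE from the limma fit). Its unadjusted p was 0.0035 and its adjusted p 0.656 in limma. On the arrays of replicate 1 it gave 0.15, -1.01 and -0.34 with laser RNA in Cy3 and -1.94, -0.65 and -0.19 with laser RNA in Cy5. In replicate 2 the orientations gave -0.81 and -0.01, and in replicate 3 they gave -0.99, -0.62 and -0.92 with laser RNA in Cy3 and -2.49, -0.11 and 0.06 with laser RNA in Cy5. Of the 14 arrays, 12 were thus below 0. Before normalization, however, the laser channel of replicate 1 was the brighter on 5 of 6 arrays at POU4F2, by a median factor of 1.72. The laser channel there was above background on 3 of 6 arrays and the control channel on 4. By the file names POU4F2 would be 0.40 in replicate 2.

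POU4F2 was also below 0 at 30 min (-0.43 and -0.64 in replicates 1 and 2), while it was -0.24 and 0.36 at 1 hr and -0.09 and -0.05 at 2 hr. Its difference between 3 hr and the mean of the other times was -0.46, with an unadjusted p of 0.041 and an adjusted p of 0.856 in limma. GTF2F1, a subunit of the general factor TFIIF, averaged -0.36 ± 0.14 (SE from the limma fit) and was below 0 in every sample at 3 hr (-0.58, -0.18 and -0.32). It was above 0 in every sample at 1 hr (0.15 and 0.20) and at 2 hr (0.51 and 0.04), and it gave -0.12 and 0.01 at 30 min. In replicate 2 at 3 hr its control channel was not above background. Before normalization the laser channel of replicate 1 was the brighter on 5 of 6 arrays at GTF2F1. KIAA1037 averaged -0.79, -0.12 and -0.34 at 3 hr and was above 0 in all 6 samples of the earlier times, between 0.02 and 0.27. Neither channel of replicate 2 was above background at KIAA1037, and by the file names it would be 0.14 there. Its difference from the other times was -0.55, with an unadjusted p of 0.0188 and an adjusted p of 0.856 in limma.

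Among the other probes with an unadjusted p under 0.05 were KIAA0669 (TSC22D2), AB026190 and MADH7. Their means were -0.61 (KIAA0669), -0.53 (AB026190) and -0.67 (MADH7), each with an adjusted p of 0.656 in limma. AB026190 was below 0 on all 6 arrays of replicate 1 and in all 3 samples (-0.88, -0.60 and -0.10), but by the file names its mean would be 0.21. Before normalization its laser channel was the brighter on 5 of the 6 arrays of replicate 1. KIAA0669 was -1.46, -0.16 and -0.22 in replicates 1 to 3. Each channel of replicate 1 was above background at KIAA0669 on 1 of 6 arrays, and the 3 dye-swap pairs gave 0.07, -3.22 and -1.23. MADH7 gave -0.05, -3.69 and -0.63 in those pairs. Before normalization the laser channel of replicate 1 was the brighter on 4 of 6 arrays at MADH7. PLTP, a phospholipid transfer protein, was below 0 in all 3 samples (-0.80, -0.16 and -0.21) and on all 6 arrays of replicate 1, where neither channel was above background.

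**Figure D5:**
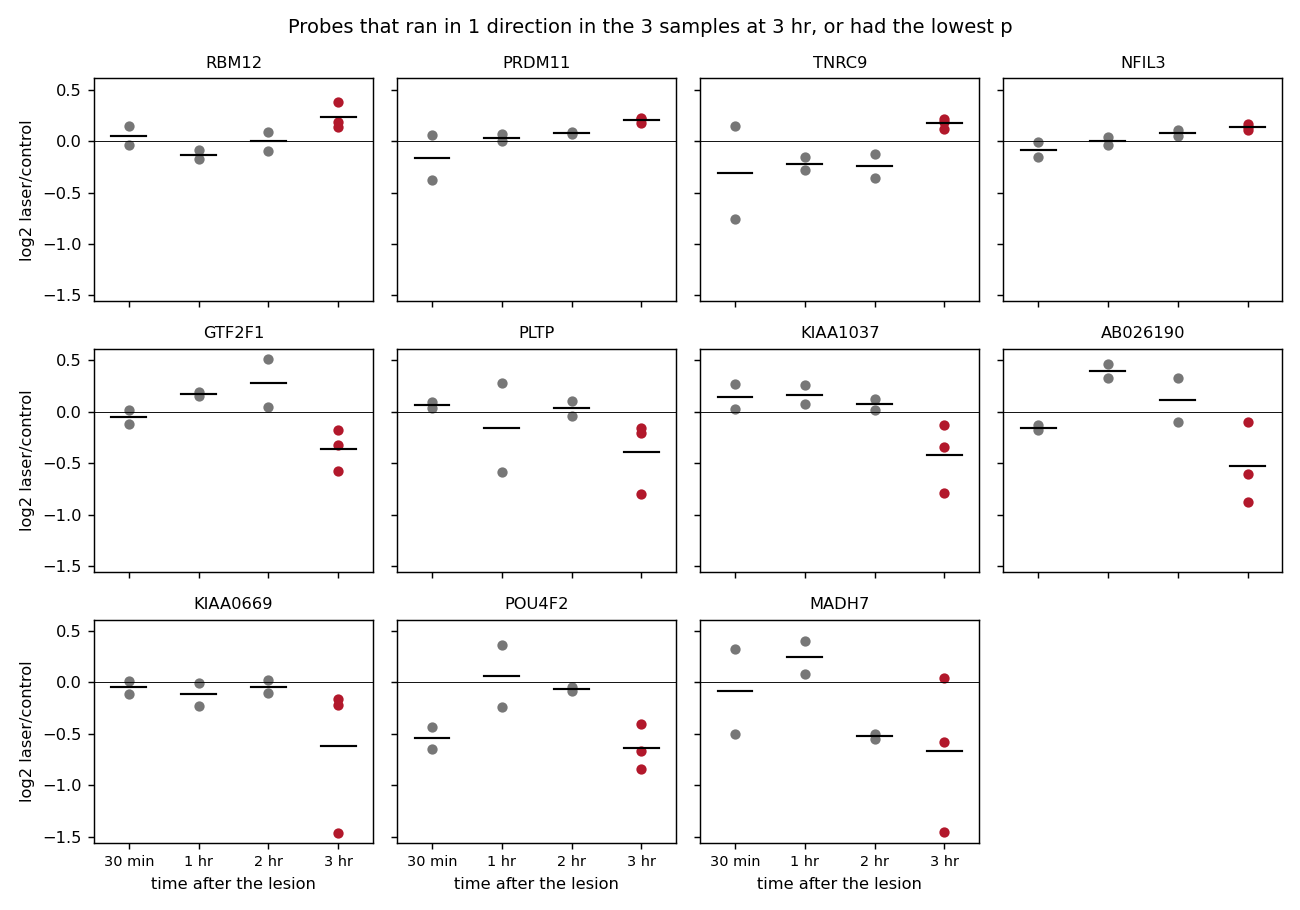
Log2 laser over control ratios by time after the lesion (30 min to 3 hr), 1 panel per probe and 1 point per biological sample. POU4F2 lies between -0.84 and -0.41 in the 3 samples at 3 hr, and KIAA1037 is below 0 in all 3 and above 0 in all 6 samples of the earlier times.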

How the data were processed

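RNA of lesioned and control utricle cultures was compared on 33 arrays, of which 14 belonged to 3 hr. The deposited channel files hold linear intensity readings of each spot and its surroundings, which the authors measured with ImaGene 4.1 and did not normalize. The deposited series table holds log2 ratios that equalled the raw ratios by file name (largest difference 6.22e-15), and it was used only as an alternative. The authors' own normalized values were not used here. The dye of the laser RNA was taken from the sample title and the channel from the image name in the header.

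Background was corrected with normexp (offset 50), and each array was normalized by loess in which control and blank spots had weight 0. Duplicate spots, then arrays within a dye orientation, then orientations were averaged with equal weight. A spot counted as above background when its signal exceeded the local background by 2 SDs of it. A channel above background on no array of a sample was set at the lowest signal above background of any probe on the array, unless its own signal was higher. The fold so given comes from means of normalized log2 values over the arrays of the sample. The detection limit of the probe itself may lie higher, so such a fold is an estimate and not a strict bound. Across-channel levels remain open to dye bias. The number of arrays limits the precision, and earlier-print arrays lacked 13 of the 371 probes.

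A model with 1 mean per time and no replicate block was fitted to the 9 sample ratios with limma 3.58.1, run in R 4.3.3 beside statmod 1.5.0, with Benjamini-Hochberg adjustment over 371 probes. The code of the fit was also run on simulated data. That run is a check of the code alone. It is no evidence on how the fit performs with samples as unequal in spread as these. Replicate numbers came from the titles and were not used as a pairing in this model. Same-numbered samples deviated from their time means with r between -0.369 and 0.255. Deviations of 2 samples from their mean mirror each other, so these values cannot decide whether the numbers pair the samples. The labels call the biological samples separate, and p-values measure the spread between them. Intensity tables were used for 1516 identifiers, of which 754 equalled a current chicken symbol of the assembly GRCg7b and 817 a symbol or synonym. Coordinates and sequences were not used, and some genes are not reported here.

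The text names the 8 probes highest and the 8 lowest in replicate 1 among those of 1 sign on all its arrays, the 4 probes of each direction with the largest smallest ratio over the 3 samples, and those with an unadjusted p under 0.05. It also names set members of the AP-1 and cell type lists, and the extremes of each list. Members and lists were chosen with earlier results of these data known. Probes named outside this rule were chosen after their values were seen. Alternatives changed the background correction, the normalization, the dim filter, the channel assignment, the dye turn, the print, the unit of the fit and the samples.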

Additional observations from a re-analysis of the deposited data

Results flagged for a closer look

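Some probes had 1 sign in all 3 samples at 3 hr and the opposite sign in both samples of an earlier time. This happened for 7 of 371 probes against 30 min (1.89%), 22 against 1 hr (5.93%) and 20 against 2 hr (5.39%). Unrelated samples would also give such probes, so the counts alone do not show a change over time. The differences between single times were not tested. Each is given as 3 hr minus the earlier mean on the log2 scale.

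Against 30 min, NFIL3 differed by 0.22, PLTP by -0.45 and KIAA1037 by -0.56. Against 1 hr, RBM12 differed by 0.37 and TNRC9 by 0.39. In the other direction GTF2F1 differed by -0.53, AB026190 by -0.92 and KIAA1037 by -0.58. Against 2 hr, FOSB differed by 0.40, TNRC9 by 0.41 and TBX21, a T-box factor of lymphocytes, by 0.16, while GTF2F1 differed by -0.64 and KIAA1037 by -0.49.

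The earlier print carried spots that the comparisons above did not use. Among those at 3 hr, the BMP4 probe was above background at 1 of 16 spots and the FGFR3 probe at 2 of 16 spots in the laser channel, and both were above it at 0 of 16 spots in the control channel. The probes of both genes whose names carry the word chick were above background at 0 of 16 spots in either channel.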

How the results depend on the processing

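No probe was called at 3 hr under the alternatives run, with 1 exception. That fit took all 33 arrays of the series as units with the imaging day as a random block and called 16, with 107 at an unadjusted p under 0.05. The methods' t-test called 0 after Benjamini-Hochberg adjustment, with 35 probes at an unadjusted p under 0.05 over the 14 arrays and 10 over the 3 samples. With the replicate number as a block in a paired analysis (replicate block), 0 were called and 9 had an unadjusted p under 0.05, and the replicate block changed no call. The contrast of 3 hr with the other times called 0 in each of the 26 alternatives in which it was fitted, which leaves out 3 hr fitted alone and the methods' t-tests. Counts at an unadjusted p under 0.05, against 7, were 11 with median centring, 15 with arrays scaled to 1 spread, 66 in the series table, 42 by file name, 29 with no dim filter, 15 at a filter of 800 and 11 with the filter over the 14 arrays. They were 1 with 3 hr fitted alone, 22 with sample quality weights and 70 with arrays as units and the biological sample as a random block. With the sign of the Cy5 arrays unturned there were 23, and with the Cy3 arrays turned as well 78. Leaving out 1 sample gave 1 to 35, with 1 without 3 hr replicate 1, 27 without replicate 2, 35 without replicate 3 and 4 without either 2 hr sample.

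Probes higher on every array of replicate 1, against 16, numbered 9 without background correction, 114 with median centring, 92 in the series table, 136 with no dim filter, 57 and 8 at filters of 800 and 1200, and 71 with the filter over 14 arrays. They numbered 74 without the earlier print and 33, 36 and 34 without the first, the second or the third pair. Probes lower on every array, against 92, numbered 55 with median centring, 61 in the series table (60.1% of such probes higher there), 147 with no dim filter, 177 without the earlier print and 140 without the first pair. Fewer arrays or more probes make such counts larger by construction. Probes of the same sign in the 3 samples, against 76, numbered 124 in the series table, 304 with no dim filter, 150 and 43 at filters of 800 and 1200, and 119 with the Cy3 arrays turned. With 1 of the 3 samples left out, 161 to 200 probes had the same sign in the remaining samples, a count that is larger by construction.

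The excess of spread at 3 hr was 0.407 with either dye turn (exact permutation p = 0.0119) and, leaving out 1 sample, ranged from -0.108 without 3 hr replicate 1 to 0.327 without replicate 3. The turns were applied to 3 hr samples alone and put the wider part in place of the narrower. That p thus follows from the construction. The orientations of replicate 2 correlated at 0.877 in the series table and 0.783 by file name. In replicate 1, JUNB turned to 0.61 and 0.94, CEBPG to 0.19 and 0.51, TAF2H to 0.019 and 0.25, BCL11A to 0.37 and 0.64, and ELF3 to 0.30 and 0.64 with median centring and in the series table, and ID1 to 0.28 in the series table. With the Cy3 arrays turned as well, the 3 hr means were -0.004 for RBM12, -0.26 for TNRC9, -0.034 for NFIL3 and 0.10 for AB026190. AB026190 was 0.21 by file name, and MADH7 was 0.17 with the Cy5 arrays unturned. The causes were not tested beyond these constructions. At 3 hr the share of probes above background in the laser channel was 10.1% to 47.7% in replicate 1, 12.9% to 46.8% in replicate 2 and 39.8% to 99.3% in replicate 3, against 5.28% to 45.1%, 9.04% to 25.6% and 25.4% to 99.3% in the control channel.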

Other observations

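The arrays also carried 16 mismatch versions of 4 probes. At 3 hr, 14 of the 16 mismatch versions had a brighter median signal than the probe they were made from. The log2 laser over control ratios of the mismatch versions ran from -0.53 to 0.40 in replicate 1, from -0.26 to 0.22 in replicate 2 and from -0.69 to 0.42 in replicate 3.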
